A study of Mus musculus with 9 samples.

Results

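Genes of DNA replication and cell division were followed in sorted mouse skin cells of 2 Flg genotypes, labelled wt/wt (5 libraries) and ko/ko (4 libraries). The product of Flg, filaggrin, packs keratin filaments in the outermost epidermis. The set holds 40 genes, chosen by symbol and found in all cases among the 49671 gene rows of the count table: 12 replication genes, 21 mitotic genes and 7 genes of G1 cyclins and cell cycle transcription factors. Epidermal cells without CD45, which marks leukocytes, and with the integrin chain CD49f were sorted by flow cytometry, and their RNA was amplified with SMARTseq2 chemistry and sequenced. Each library carries its own identifier in its title and is taken here as a separate animal, which the labels do not state, so p-values measure the spread between these samples. The labels used here do not state how the ko allele was made, the strain or the age. All 40 genes passed the filter on low counts and entered the test, out of 18435 genes tested in all.

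A dividing cell copies its DNA once per cycle. In G1, D-type and E-type cyclins activate cyclin-dependent kinases, which release E2F factors, and E2F drives the genes that load and run the replication machinery. Genes for the passage through mitosis are switched on later in the cycle, by B-Myb and FoxM1 together with the MuvB complex. In skin, dividing cells lie mainly in the basal epidermis and in the matrix of growing hair follicles, and a resting dermal fibroblast expresses little of the mitotic set.

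Promoter sequences differed between the replication and mitotic genes in the motifs they held, and 5 are shown as examples. RefSeq windows (GRCm38.p6) from 250 bases before to 50 bases after an annotated start were found for 30 of the 40 genes, 31 windows in all, with 2 for Mcm7. No window was used for Aurkb, Ccna2, Kif20a, Mcm4, Tpx2, Ccnd1, Foxm1, Gins2, Ccne2 and Ccnd2. Searched on both strands were an E2F-type motif (TTTCCCGC, TTTCGCGC, TTTGCCGC or TTTGGCGC), the cell cycle homology region or CHR (TTTGAA or TTCGAA), which MuvB binds, and the CCAAT box, which NF-Y binds. The 200 bases upstream of the start are printed 5′ to 3′ on the gene's strand, with these motifs in capitals on either strand, so that ATTGG is a reversed CCAAT box and TTCAAA a reversed CHR. Motifs that overlap run together in capitals, as the opposed E2F-type matches of Mcm5 and Mcm6 do.
Mcm5 (chr8:75109309-75109508, plus strand): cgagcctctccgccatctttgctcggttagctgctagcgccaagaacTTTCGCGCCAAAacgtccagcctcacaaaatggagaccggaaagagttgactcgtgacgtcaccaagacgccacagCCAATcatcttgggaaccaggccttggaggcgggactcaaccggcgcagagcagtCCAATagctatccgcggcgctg
Mcm6 (chr1:128359706-128359905, minus strand): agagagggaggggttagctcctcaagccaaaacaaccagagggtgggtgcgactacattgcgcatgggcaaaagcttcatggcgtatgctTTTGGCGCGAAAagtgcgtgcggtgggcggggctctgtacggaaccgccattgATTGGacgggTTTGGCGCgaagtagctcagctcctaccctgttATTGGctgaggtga
Cdk1 (chr10:69352913-69353112, minus strand): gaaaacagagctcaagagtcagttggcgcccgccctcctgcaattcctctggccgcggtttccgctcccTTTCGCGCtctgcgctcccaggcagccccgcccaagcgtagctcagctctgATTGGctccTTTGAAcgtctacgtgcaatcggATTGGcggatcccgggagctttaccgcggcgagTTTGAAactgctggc
Cdc20 (chr4:118437344-118437543, minus strand): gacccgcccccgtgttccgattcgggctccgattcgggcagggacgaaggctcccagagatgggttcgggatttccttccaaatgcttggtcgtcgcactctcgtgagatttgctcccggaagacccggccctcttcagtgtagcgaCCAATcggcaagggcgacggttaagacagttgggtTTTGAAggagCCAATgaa
Top2a (chr11:99024190-99024389, minus strand): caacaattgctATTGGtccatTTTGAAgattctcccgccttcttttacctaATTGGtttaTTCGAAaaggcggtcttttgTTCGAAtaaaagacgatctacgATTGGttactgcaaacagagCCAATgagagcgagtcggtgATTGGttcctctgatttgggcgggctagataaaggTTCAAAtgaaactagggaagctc

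An E2F-type match was present in 6 of 11 replication windows (54.5%) and in 1 of 17 mitotic windows (5.88%), that of Cdk1, against 2.26% of all 32851 windows. Mcm5 and Mcm6, shown above, held such matches, while the windows of Mcm2, Pcna, Rrm1 and Rrm2 held none. A CHR match was present in 13 of 17 mitotic windows (76.5%) and 2 of 11 replication windows (18.2%), against 19.2% of all windows. CCAAT boxes were found in 15 of 17 mitotic windows (88.2%) and 9 of 11 replication windows (81.8%), against 37.4%. All 13 mitotic windows with a CHR also held a CCAAT box, a pairing found in 7.52% of all windows. Bases G and C made up 59.1% of the replication and 59.8% of the mitotic windows, against 53.8% of all. The 3 windows of Ccne1, E2f1 and Mybl2 held none of the 3 motifs. These are matches of letters, not measured binding sites.

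Per exon length, the replication genes had a higher median level than the mitotic genes. CPM, counts scaled to library sizes with TMM factors, were divided by the deposited exon length in kilobases and averaged over the 9 libraries. The median was 6.40 CPM per kb over the replication genes (0.680 to 31.5), 1.96 over the mitotic genes (0.289 to 11.1) and 3.26 over the G1 genes (0.371 to 23.6). Pcna, the sliding clamp of DNA polymerase, was highest at 31.5 CPM per kb, followed by the D-type cyclin Ccnd2 at 23.6 and the helicase subunit Mcm4 at 19.6. Among mitotic genes, Cdc20, an activator of the anaphase-promoting complex, had 11.1 CPM per kb and the B-type cyclin Ccnb2 had 7.56. Mki67, the Ki-67 proliferation antigen, had 1.15, and Cenpf, a kinetochore protein, was lowest at 0.289. Pcna-ps2, a processed copy of Pcna, had 8981 counts of its own over the 9 libraries, so the split of reads between Pcna and this copy is uncertain. Copies of Ccnb1 and Ccnb2 had 216 and 148 counts, so the split is uncertain for these genes too.

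**Figure D1:**
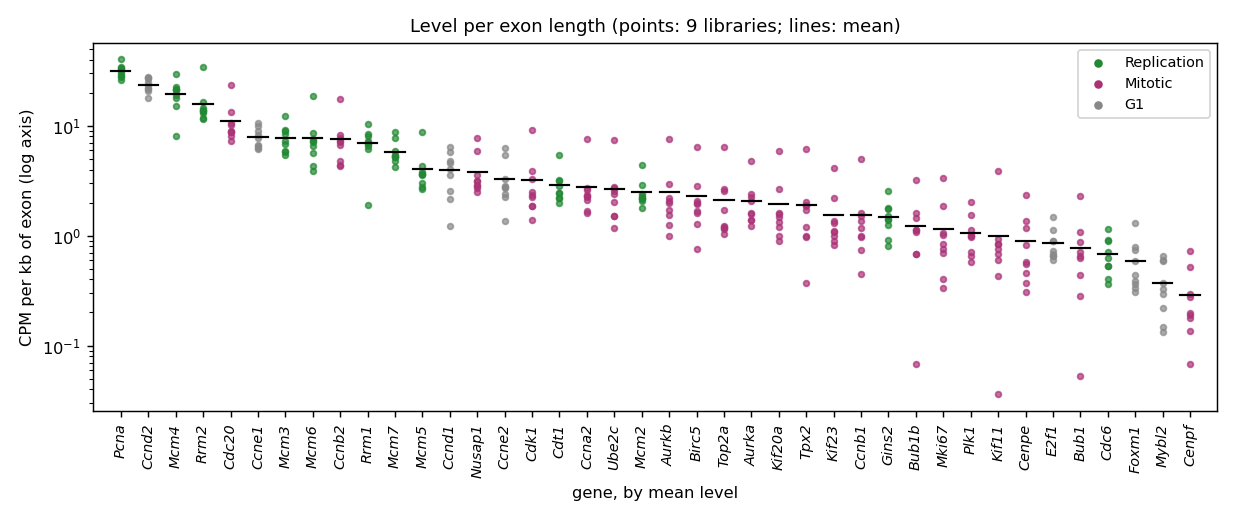
Mean level of each of the 40 genes in CPM per kb of exon (log axis), with 1 point for each of the 9 libraries and a line at the mean. Pcna, Ccnd2 and Mcm4 lead at 31.5, 23.6 and 19.6 CPM per kb, and single libraries fall far below the rest for Kif11, Bub1 and Bub1b.

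Libraries held 15601859 to 23200440 counts, and the 40 genes together 11217 to 31640 counts per library. Flg had 0 to 6 counts in every library, too few to check the genotype labels. The labels call the cells epidermal; 10 fibroblast markers summed to 26919 to 62333 CPM and 10 basal keratinocyte markers to 1592 to 3535 CPM, with the fibroblast sum higher in 9 of 9 libraries. Since these are bulk samples, fewer dividing cells and less RNA per dividing cell cannot be told apart. The library wt/wt replicate 2 stood apart most for the cell cycle genes, so fold changes of the 40 genes are given with all libraries. Where it moved them by over 1.5 times or turned their sign, they are also given without it. For the mitotic genes wt/wt replicate 1 was high too, at a sum of 216 CPM against 117 to 139 CPM in wt/wt replicates 3 to 5. Fold changes without wt/wt replicate 2 still include wt/wt replicate 1. The mitochondrial share of counts was 7.55% in wt/wt replicate 2 and 2.77% to 6.08% in the other wt/wt libraries. It was 6.30% in ko/ko replicate 1 and 1.81% to 2.01% in the other ko/ko libraries, and its part in the results was not tested.

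In wt/wt replicate 2, 35 of the 40 genes reached their highest level of all 9 libraries, against 11.3% of all genes tested. These were 12 of 12 replication genes, 20 of 21 mitotic genes and 3 of 7 G1 genes. Relative to the mean of the other 4 wt/wt libraries, its level was higher by a median factor of 1.78 over the replication genes (1.28 to 2.64), 3.52 over the mitotic genes (2.09 to 5.28) and 1.61 over the G1 genes (1.04 to 2.88). The factor was 5.28 for Kif11, a spindle motor, 5.09 for Mki67 and 4.91 for Top2a, the topoisomerase that untangles chromosomes before they separate. Pcna, at 1.28, had the smallest factor among replication genes.

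The summed replication genes had 387, 683, 389, 388 and 416 CPM in wt/wt replicates 1 to 5 and 258, 395, 373 and 397 CPM in ko/ko replicates 1 to 4. Apart from wt/wt replicate 2, which was high, and ko/ko replicate 1, which was low, these sums lay between 373 and 416 CPM in both genotypes. The summed mitotic genes had 216, 514, 139, 119 and 117 CPM in wt/wt replicates 1 to 5 and 154, 124, 182 and 155 CPM in ko/ko replicates 1 to 4. Here wt/wt replicate 2 was again highest and wt/wt replicate 1 second. Of the other wt/wt libraries, replicate 3 (139 CPM) lay within the ko/ko range, and replicates 4 and 5 (119 and 117 CPM) lay below it. The summed G1 genes had 235, 323, 309, 254 and 261 CPM in wt/wt replicates 1 to 5 and 236, 275, 309 and 328 CPM in ko/ko replicates 1 to 4, with the ranges of both genotypes nearly the same. Most of each G1 sum came from Ccnd2, at 167 to 255 CPM in wt/wt and 193 to 263 CPM in ko/ko, so the sum says little of the others. No test was made of these sums, since the genes were chosen with earlier results of these data known.

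**Figure D2:**
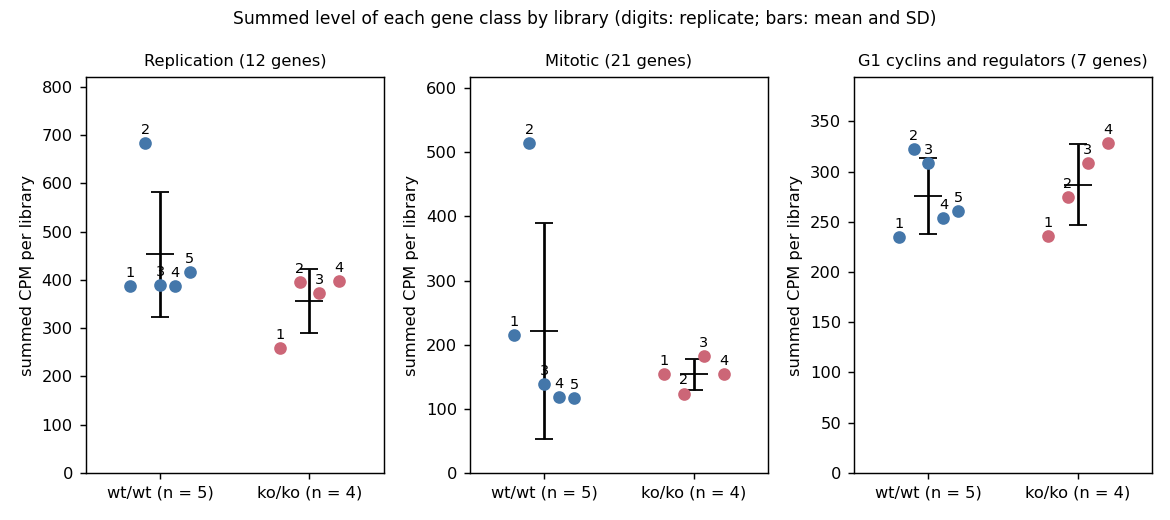
Summed CPM of the replication, mitotic and G1 genes in each library (digits give the replicate; black bars are mean and SD; wt/wt n = 5, ko/ko n = 4). In wt/wt replicate 2 the sums were 683 CPM for replication and 514 CPM for mitotic genes, above every other library.

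The markers of other cells moved with wt/wt replicate 2 as well, and their part in the result was not tested. Hair matrix and inner root sheath markers (12 genes, among them Krt25, Krt71 and Msx2) summed to 233 CPM there. They summed to 82.2 CPM in wt/wt replicate 1, 59.4 to 69.8 CPM in wt/wt replicates 3 to 5 and 48.1 to 67.4 CPM in ko/ko. Of the 9 such markers tested, 7 were highest in wt/wt replicate 2. There 0 of the 12 had no count, while Krt28, Krt71, Krt72, Krt73 and Shh were at 0 in at least 1 other library. Lef1, the largest part of the sum in the other libraries, was not raised there. Its log2 CPM was 5.67, against 5.35 to 5.71 in the other wt/wt libraries. Tchh was highest in ko/ko replicate 1, at a log2 CPM of 4.06. Basal keratinocyte markers summed to 3535 CPM in wt/wt replicate 2, 1592 to 2066 CPM in wt/wt otherwise and 1877 to 2874 CPM in ko/ko, and 0 of 10 were at 0. Fibroblast markers were lowest in wt/wt replicate 2, at 26919 CPM, and next lowest in wt/wt replicate 1, at 32632 CPM. They summed to 56169 to 62333 CPM in wt/wt replicates 3 to 5 and 35500 to 61637 CPM in ko/ko. In wt/wt replicate 2, 0 of the 10 were at 0. Myeloid markers were also lowest there, at 22.8 CPM beside 58.0 to 98.0 CPM in wt/wt otherwise, and Cd207 was the 1 of 12 at 0. Endothelial markers summed to 548 CPM there, within the wt/wt range of 305 to 621 CPM.

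None of the 40 genes passed the threshold between genotypes in edgeR's quasi-likelihood test adjusted over all genes tested (0 of 40, adjusted p from 0.295 to 0.966). Across all genes the test called 0.00542%. In simulated data the test recovered 23% of 2-fold and 67% of 4-fold changes, so a lack of calls does not show equal levels. A fit without wt/wt replicates 1 and 2, the libraries highest in the mitotic genes and so left out by the outcome itself after seeing the data, called 1 of 40, Ccnb2 as higher (adjusted p = 0.046), and 8.76% of all genes. At an unadjusted p under 0.05, 1 of the 40 was lower in ko/ko and 0 were higher, against 6.42% lower and 8.86% higher over all genes tested. DESeq2 called 0 of the 39 genes it gave an adjusted p (3.63% over all genes), and limma voom with sample quality weights called 0 of 40 (9.77% over all genes). Unadjusted p was under 0.05 for 5 genes with DESeq2, all lower (Mcm5, Mcm6, Cdk1, Bub1b and Kif20a), against 7.36% lower and 9.81% higher over all genes. With voom it was under 0.05 for 2 genes (Gins2 lower, Mybl2 higher), against 12.5% lower and 16.6% higher over all genes. Libraries of both genotypes overlapped in all 40 genes, while 2.74% of all genes had every ko/ko library below and 3.51% every ko/ko library above the wt/wt range. Myeloid markers moved with genotype: they summed to 22.8 to 98.0 CPM in wt/wt and 382, 457, 205 and 45.6 CPM in ko/ko replicates 1 to 4. Log2 fold changes were positive for 11 of the 11 myeloid markers tested (median 2.76), with an unadjusted edgeR p under 0.05 for 10. Of these 11, 0 were called by edgeR, 7 by DESeq2 and 2 by voom. Endothelial markers summed to 305 to 621 CPM in wt/wt and 268 to 376 CPM in ko/ko. At an unadjusted edgeR p under 0.05, 4 of 10 were lower and 1 was higher, and DESeq2 and voom each called 1 as lower. Of 9 hair matrix markers tested, 3 were lower at that p and 0 were called. Of 10 basal keratinocyte markers 1 was higher, and DESeq2 called 1 and voom 3 as higher. The part of these markers in the values of the 40 genes was not tested.

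Negative log2 fold changes of ko/ko over wt/wt were counted for 33 of the 40 genes, against 52.6% of all genes tested. They were 10 of 12 replication genes (median -0.33), 20 of 21 mitotic genes (median -0.58) and 3 of 7 G1 genes (median 0.08), beside a median of -0.03 over all genes. Without wt/wt replicate 2 the count was 22 of 40: 9 of 12 replication genes (median -0.16), 11 of 21 mitotic genes (median -0.08) and 2 of 7 G1 genes (median 0.17), with a median of -0.02 over all genes. Voom gave this library a weight of 0.425, wt/wt replicate 1 a weight of 0.330 and ko/ko replicate 1 a weight of 0.351. The other libraries had weights of 0.853 to 2.42. With voom, 16 of 40 were negative and the mitotic median was 0.11. Without wt/wt replicates 1 and 2, a fit chosen after seeing the data, 17 of 40 were negative and the mitotic median was 0.28. Leaving out any 1 library other than wt/wt replicate 2 kept between 32 and 34 of 40 negative. Scaling by RLE, by upper quartile or by library size alone gave 33 of 40 negative in each case, although library size alone moved the median of all genes to 0.08 and the negative share of all genes to 40.9%.

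**Figure D3:**
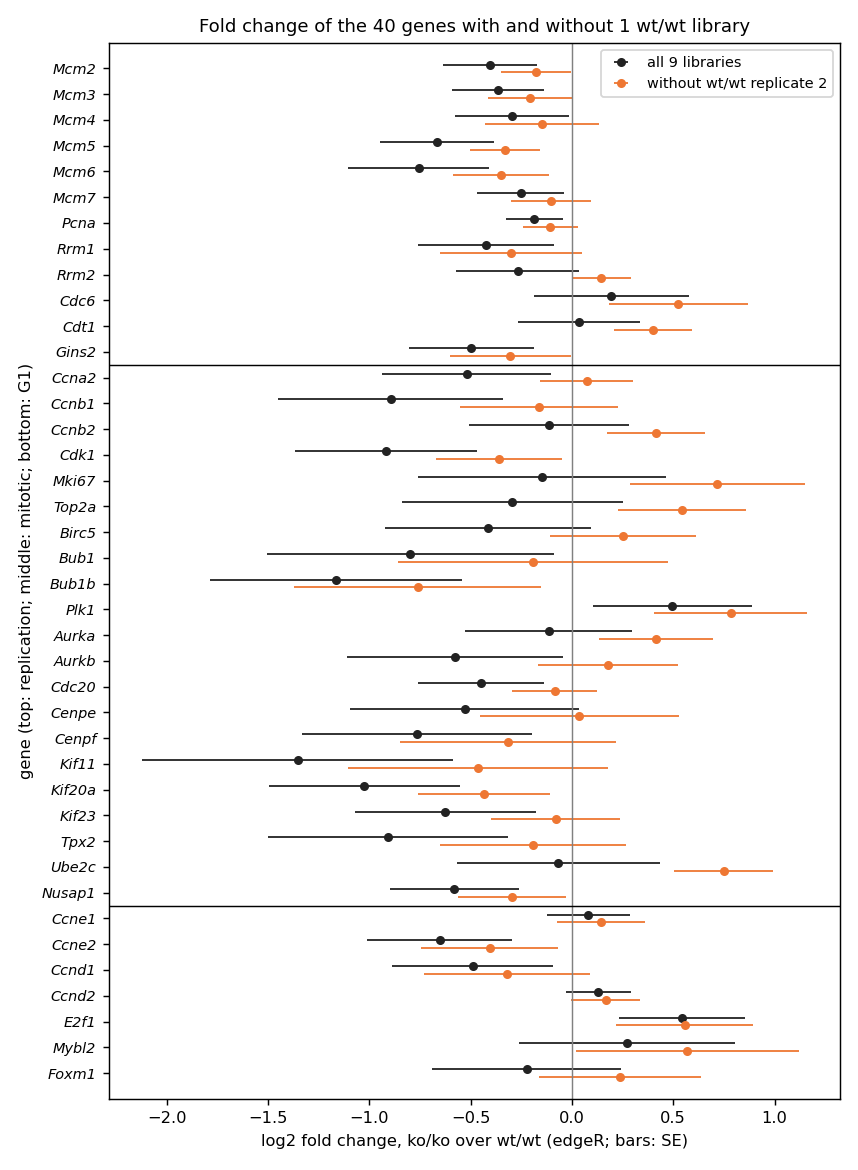
Log2 fold change of ko/ko over wt/wt for each of the 40 genes from edgeR (bars are SE), with all 9 libraries and without wt/wt replicate 2. Values of the mitotic genes were all higher without that library, that of Mki67 moving from -0.15 to 0.72, while Mcm5 went from -0.67 to -0.33.

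The Mcm2 to Mcm7 subunits form the ring-shaped helicase that opens the DNA double strand. Mcm5 (ENSMUSG00000005410; mm10 chromosome 8, 75109569 to 75128439, plus strand), whose promoter held the overlapping E2F-type matches shown above, had 14.2, 35.0, 15.1, 14.5 and 17.1 CPM in wt/wt replicates 1 to 5 and 10.6, 11.0, 12.1 and 14.6 CPM in ko/ko replicates 1 to 4. All ko/ko libraries lay at or below 14.6 CPM and the wt/wt libraries at or above 14.2 CPM, so the ranges met only at their edges. The log2 fold change was -0.67 with SE 0.28 (adjusted p = 0.295 by edgeR), and it was the 1 gene of the 40 with an unadjusted p under 0.05 (0.0365); without wt/wt replicate 2 it was -0.33 (SE 0.17).

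Mcm6 had 33.7, 86.9, 33.3, 30.7 and 35.2 CPM in wt/wt replicates 1 to 5 and 17.9, 20.2, 26.2 and 39.7 CPM in ko/ko replicates 1 to 4. Here 3 of the 4 ko/ko libraries lay below every wt/wt library, but ko/ko replicate 4 was above all wt/wt libraries except replicate 2. Its log2 fold change was -0.76 with SE 0.35 (adjusted p = 0.331 by edgeR), or -0.35 (SE 0.24) without wt/wt replicate 2. Mcm2 had 14.95, 30.8, 15.4, 16.1 and 19.97 CPM in wt/wt replicates 1 to 5 and 14.5, 12.5, 15.2 and 16.5 CPM in ko/ko replicates 1 to 4. Apart from wt/wt replicate 2 its libraries spread from 12.5 to 19.97 CPM, with a log2 fold change of -0.40 with SE 0.23 (adjusted p = 0.428 by edgeR), or -0.18 (SE 0.17) without that library.

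Mcm4 had 54.3, 107, 76.7, 68.8 and 77.5 CPM in wt/wt replicates 1 to 5 and 28.7, 80.2, 76.3 and 64.8 CPM in ko/ko replicates 1 to 4. The low value was that of ko/ko replicate 1, and the other ko/ko libraries lay inside the wt/wt range; the log2 fold change was -0.30 with SE 0.28 (adjusted p = 0.643 by edgeR), or -0.15 (SE 0.28) without wt/wt replicate 2; it was -0.06 when ko/ko replicate 1 was left out. Mcm3 averaged 32.4 CPM in wt/wt (SD 9.43, n = 5) and 25.2 CPM in ko/ko (SD 4.56, n = 4), and Mcm7 27.8 CPM in wt/wt (SD 8.37, n = 5) and 23.3 CPM in ko/ko (SD 1.91, n = 4), with log2 fold changes of -0.37 (SE 0.23) and -0.25 (SE 0.21), or -0.21 (SE 0.21) and -0.10 (SE 0.20) without wt/wt replicate 2. All 6 helicase genes had negative log2 fold changes, from -0.76 to -0.25, and all 6 stayed negative without wt/wt replicate 2, from -0.35 to -0.10. Mcm7 shares 7.25% of its exon bases with Ap4m1 on the opposite strand.

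Factors that load the helicase had positive log2 fold changes with all libraries, each smaller than its SE. Cdc6 and Cdt1 place the Mcm ring on origins in G1, and Gins2 belongs to the GINS complex that activates it. Cdc6 had 2.75, 6.05, 3.27, 2.75 and 1.88 CPM in wt/wt replicates 1 to 5 and 4.80, 2.13, 4.64 and 3.74 CPM in ko/ko replicates 1 to 4. Its 2 genotypes overlapped, and the log2 fold change was 0.19 (SE 0.38), 0.52 (SE 0.34) without wt/wt replicate 2 and 0.07 when ko/ko replicate 1 was left out. Cdt1 averaged 8.92 CPM in wt/wt (SD 4.47, n = 5) and 9.13 CPM in ko/ko (SD 1.07, n = 4), and its log2 fold change was 0.03 (SE 0.30), or 0.40 (SE 0.19) without wt/wt replicate 2. Gins2 averaged 6.98 CPM in wt/wt (SD 2.10, n = 5) and 4.95 CPM in ko/ko (SD 1.79, n = 4), with -0.50 (SE 0.31), or -0.30 (SE 0.30) without wt/wt replicate 2; 67.3% of its exon bases lie also in exons of Gse1 on the opposite strand, and no source states whether strand was used in counting, so its counts are uncertain.

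Pcna had 79.9, 96.5, 73.4, 78.9 and 70.4 CPM in wt/wt replicates 1 to 5 and 63.2, 81.9, 68.7 and 67.0 CPM in ko/ko replicates 1 to 4. The libraries of the 2 genotypes overlapped, and the log2 fold change was -0.19 with SE 0.14 (adjusted p = 0.552 by edgeR), or -0.11 (SE 0.14) without wt/wt replicate 2. Rrm1 and Rrm2 are the large and small subunits of ribonucleotide reductase, which makes deoxynucleotides. Rrm2 averaged 47.6 CPM in wt/wt (SD 26.5, n = 5) and 39.5 CPM in ko/ko (SD 4.16, n = 4), giving a log2 fold change of -0.27 (SE 0.30) that was 0.15 (SE 0.15) without wt/wt replicate 2. Rrm1 had 79.6, 115, 75.2, 72.7 and 89.8 CPM in wt/wt replicates 1 to 5 and 21.04, 92.8, 67.3 and 76.4 CPM in ko/ko replicates 1 to 4. Its ko/ko replicate 1 was far below all other libraries, and without that library the log2 fold change of -0.42 was -0.13.

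The plot of levels by library shows the mitotic genes high together in wt/wt replicate 2. Cyclins A2, B1 and B2 bind Cdk1, the kinase that drives entry into mitosis. Cdk1 (ENSMUSG00000019942; mm10 chromosome 10, 69336635 to 69352938, minus strand) had 13.5, 31.6, 11.4, 6.41 and 6.47 CPM in wt/wt replicates 1 to 5 and 7.80, 4.75, 8.67 and 8.14 CPM in ko/ko replicates 1 to 4. Every ko/ko library lay within the wt/wt range or below it, and the log2 fold change was -0.92 with SE 0.45 (adjusted p = 0.36 by edgeR), or -0.36 (SE 0.31) without wt/wt replicate 2. Ccnb2 had 12.5, 26.7, 7.33, 6.76 and 6.61 CPM in wt/wt replicates 1 to 5 and 10.3, 11.9, 11.1 and 11.0 CPM in ko/ko replicates 1 to 4. Its ko/ko libraries lay close together, above wt/wt replicates 3 to 5 and below replicates 1 and 2. The log2 fold change of Ccnb2 was -0.11 with SE 0.39 (adjusted p = 0.914 by edgeR), and the sign turned without wt/wt replicate 2, to 0.42 (SE 0.24) with an adjusted p of 0.405. Ccnb1 averaged 8.20 CPM in wt/wt (SD 7.35, n = 5) and 4.40 CPM in ko/ko (SD 2.27, n = 4), and Ccna2 13.2 CPM in wt/wt (SD 10.01, n = 5) and 9.21 CPM in ko/ko (SD 1.78, n = 4), with log2 fold changes of -0.89 (SE 0.56) and -0.52 (SE 0.42). Without wt/wt replicate 2 these were -0.16 (SE 0.39) and 0.07 (SE 0.23), the second with its sign turned. Ccna2 shares 12.5% of its exon bases with Exosc9 on the opposite strand.

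**Figure D4:**
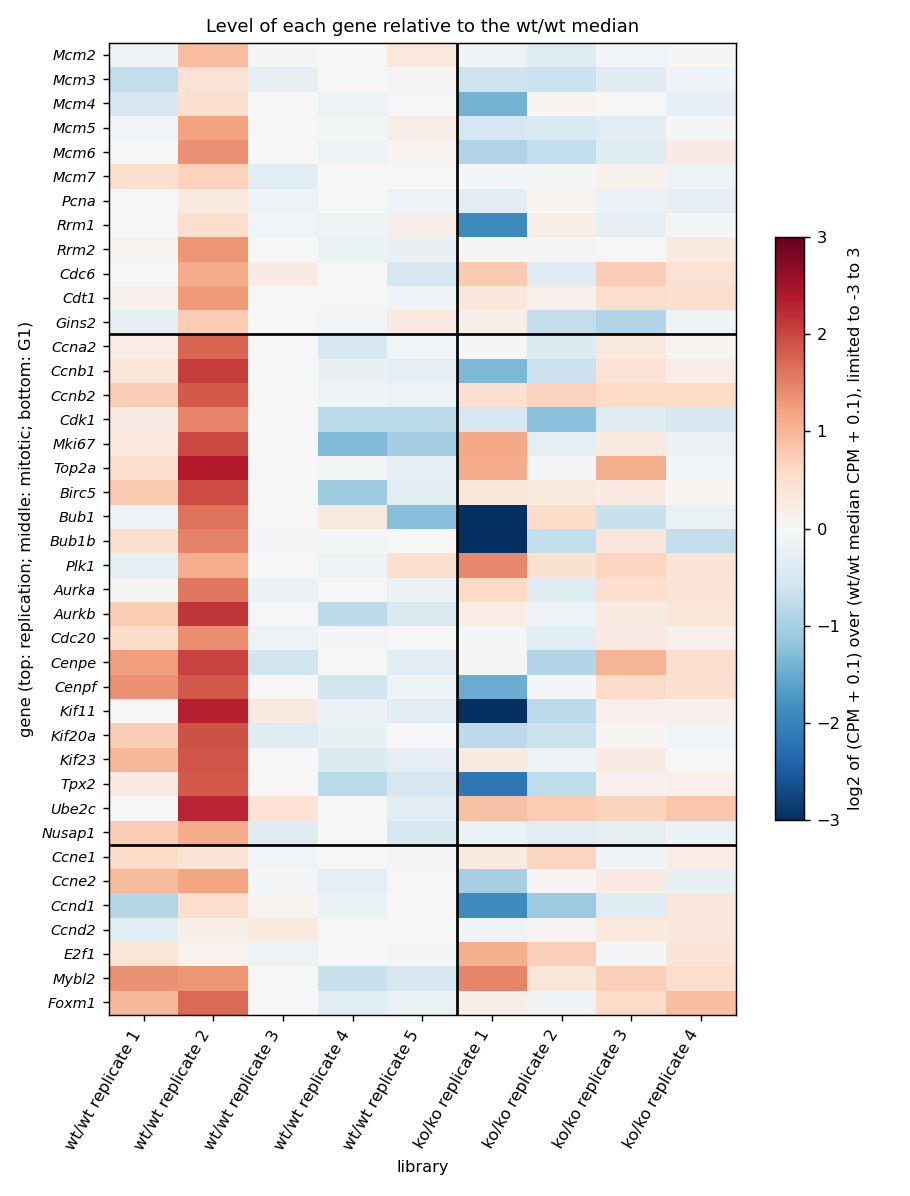
Level of each gene in each library as log2 of (CPM + 0.1) over the wt/wt median (CPM + 0.1), limited to -3 to 3; red is above and blue below that median. The column of wt/wt replicate 2 is red throughout the mitotic block, and ko/ko replicate 1 holds deep blue cells for Bub1, Bub1b and Kif11 beside red ones for Mki67, Top2a and Plk1.

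Mki67 and Top2a are used widely to mark dividing cells. Mki67 had 10.6, 33.8, 8.50, 3.36 and 4.09 CPM in wt/wt replicates 1 to 5 and 18.8, 6.97, 10.3 and 7.53 CPM in ko/ko replicates 1 to 4. Its wt/wt libraries spanned a wider range than its ko/ko libraries, at both ends, and the SD in wt/wt exceeded the mean (12.5 against 12.1 CPM). The log2 fold change was -0.15 with SE 0.61 (adjusted p = 0.928 by edgeR); without wt/wt replicate 2 it was 0.72 (SE 0.43), with an adjusted p of 0.421. Top2a had 15.5, 57.4, 11.0, 10.8 and 9.37 CPM in wt/wt replicates 1 to 5 and 23.9, 10.6, 23.1 and 10.4 CPM in ko/ko replicates 1 to 4. Apart from wt/wt replicate 2, the highest values were those of ko/ko replicates 1 and 3. Its log2 fold change was -0.29 with SE 0.54 (adjusted p = 0.83 by edgeR) and turned to 0.54 (SE 0.32) without wt/wt replicate 2, with an adjusted p of 0.407.

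Log2 fold changes of mitotic kinases and checkpoint proteins ran from -1.16 to 0.50, and differences between these genes were not tested. Bub1b, a kinase-like protein of the spindle checkpoint, had 6.86, 13.7, 4.64, 4.78 and 4.87 CPM in wt/wt replicates 1 to 5 and 0.289, 2.94, 6.23 and 2.93 CPM in ko/ko replicates 1 to 4. The ko/ko replicate 1 value rested on 5 counts, and the log2 fold change was -1.16 with SE 0.62 (adjusted p = 0.4 by edgeR), or -0.76 (SE 0.61) without wt/wt replicate 2. Bub1, a kinase at the kinetochore, averaged 4.19 CPM in wt/wt (SD 3.35, n = 5) and 2.40 CPM in ko/ko (SD 1.86, n = 4), giving a log2 fold change of -0.80 (SE 0.71), or -0.19 (SE 0.66) without wt/wt replicate 2. Plk1, a kinase that acts from mitotic entry to cell separation, was the 1 mitotic gene with a positive log2 fold change, 0.50 (SE 0.39), or 0.78 (SE 0.38) without wt/wt replicate 2 and 0.19 when ko/ko replicate 1 was left out, at 1.98 CPM in wt/wt (SD 0.882, n = 5) and 2.81 CPM in ko/ko (SD 1.11, n = 4). Aurka, a kinase of the spindle poles, averaged 5.42 CPM in wt/wt (SD 3.72, n = 5) and 5.01 CPM in ko/ko (SD 1.33, n = 4), giving a log2 fold change of -0.12 (SE 0.41) that turned to 0.41 (SE 0.28) without wt/wt replicate 2. Aurkb and Birc5 (survivin) belong to the chromosomal passenger complex and stood at -0.58 (SE 0.53) and -0.41 (SE 0.51) on the log2 fold scale. Both turned without wt/wt replicate 2, to 0.18 (SE 0.35) and 0.25 (SE 0.36).

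Cdc20 had 24.8, 44.3, 15.2, 16.3 and 16.8 CPM in wt/wt replicates 1 to 5 and 16.5, 13.5, 19.9 and 18.9 CPM in ko/ko replicates 1 to 4. Replicates 3 to 5 of wt/wt lay within the ko/ko range, and replicates 1 and 2 above it; the log2 fold change was -0.45 with SE 0.31 (adjusted p = 0.514 by edgeR), or -0.09 (SE 0.21) without wt/wt replicate 2. Ube2c, the ubiquitin-conjugating enzyme of the same complex, had -0.07 (SE 0.50) with all libraries and 0.75 (SE 0.24) without wt/wt replicate 2, where it was the 1 gene of the 40 with an unadjusted p under 0.05 (adjusted p = 0.196). It shares 22.8% of its exon bases with Tnnc2 on the opposite strand.

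Of all 40 genes, the spindle motor Kif11 had the most negative log2 fold change. Kif11, which pushes the spindle poles apart, had 3.66, 18.9, 4.49, 3.25 and 2.89 CPM in wt/wt replicates 1 to 5 and 0.173, 2.08, 4.03 and 4.05 CPM in ko/ko replicates 1 to 4 and a log2 fold change of -1.35 with SE 0.77 (adjusted p = 0.427 by edgeR), or -0.46 (SE 0.64) without wt/wt replicate 2. Kif20a, a motor of the central spindle, had 10.02, 22.5, 4.54, 5.08 and 5.92 CPM in wt/wt replicates 1 to 5 and 3.41, 3.76, 6.09 and 5.61 CPM in ko/ko replicates 1 to 4. All ko/ko libraries lay between 3.41 and 6.09 CPM and 3 wt/wt libraries between 4.54 and 5.92 CPM. The log2 fold change of Kif20a was -1.03 with SE 0.47 (adjusted p = 0.33 by edgeR), or -0.43 (SE 0.33) without wt/wt replicate 2; 33.2% of its exon bases lie also in exons of the more abundant Cdc23 on the opposite strand, so its counts are uncertain. Kif23 and Tpx2, a central spindle motor and a spindle assembly factor, stood at -0.63 (SE 0.45) and -0.91 (SE 0.59) on that scale, or -0.08 (SE 0.32) and -0.19 (SE 0.46) without wt/wt replicate 2. The kinetochore motor Cenpe had -0.53 (SE 0.57), Cenpf -0.76 (SE 0.57) and Nusap1, a spindle-binding protein, -0.58 (SE 0.32). Without that library the values were 0.04 (SE 0.49) for Cenpe, with its sign turned, -0.31 (SE 0.53) for Cenpf and -0.29 (SE 0.27) for Nusap1.

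The library ko/ko replicate 1 differed from the other ko/ko libraries in both directions. Of the 21 mitotic genes, 8 were lowest and 8 highest there among the 4 ko/ko libraries, and of the 12 replication genes 6 were lowest and 2 highest. Shares over all genes tested were not counted for this library, so these counts are not shown to be particular to the cell cycle genes. Kif11 had 3 counts there and 46 to 86 in ko/ko replicates 2 to 4, Bub1 4 and 41 to 104, and Bub1b 5 and 58 to 133. Rrm1 had 364 counts there and 1435 to 2050 in those libraries. In the same library Mki67 had 18.8 CPM against 6.97 to 10.3 CPM, and Plk1 4.45 CPM against 2.12 to 2.48 CPM. This library had the smallest total of all, 15601859 counts. Reads of the predicted gene Gm10800 stood at 3570 CPM there, 12903 CPM in ko/ko replicate 4, 2150 CPM in wt/wt replicate 1 and 2.94 to 257 CPM elsewhere; their part in these values was not tested.

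Spread between libraries was wider for mitotic than for replication genes in wt/wt. The median coefficient of variation over genes was 78.3% for mitotic, 32.1% for replication and 31.3% for G1 genes in wt/wt, and 28.2%, 16.5% and 33.4% in ko/ko. Without wt/wt replicate 2 the wt/wt values were 34.0%, 12.5% and 25.5%.

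D-type and E-type cyclins act upstream of both sets. Ccnd2, a D-type cyclin that activates Cdk4 and Cdk6, had 167, 234, 255, 205 and 207 CPM in wt/wt replicates 1 to 5 and 193, 219.6, 257 and 263 CPM in ko/ko replicates 1 to 4. The genotypes overlapped over most of their range, and the log2 fold change was 0.13 with SE 0.16 (adjusted p = 0.733 by edgeR). Ccnd1, the other D-type cyclin in the set, had 12.1, 30.4, 22.7, 19.0 and 21.8 CPM in wt/wt replicates 1 to 5 and 5.78, 10.1, 16.9 and 27.5 CPM in ko/ko replicates 1 to 4. Its ko/ko libraries spread over a wider range than wt/wt, from the lowest value of all to the second highest, and the log2 fold change was -0.49 with SE 0.40 (adjusted p = 0.576 by edgeR). It was -0.32 (SE 0.41) without wt/wt replicate 2, -0.22 without ko/ko replicate 1 and -0.95 without ko/ko replicate 4. Ccnd1 shares 23.4% of its exon bases with a gene on the opposite strand.

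Ccne1 and Ccne2 encode the E-type cyclins that bind Cdk2 at the start of S phase. Ccne1 had 26.6, 23.9, 16.8, 17.9 and 17.6 CPM in wt/wt replicates 1 to 5 and 21.8, 28.1, 16.4 and 20.7 CPM in ko/ko replicates 1 to 4, a log2 fold change of 0.08 with SE 0.20 (adjusted p = 0.877 by edgeR). That of Ccne1 was 0.14 (SE 0.22) without wt/wt replicate 2, and its sign turned without ko/ko replicate 2, to -0.068. Ccne2 had 18.9, 22.2, 9.47, 7.88 and 9.69 CPM in wt/wt replicates 1 to 5 and 4.80, 9.96, 11.5 and 8.29 CPM in ko/ko replicates 1 to 4. Its highest values were those of wt/wt replicates 1 and 2, and the log2 fold change was -0.65 with SE 0.36 (adjusted p = 0.414 by edgeR), or -0.41 (SE 0.34) without wt/wt replicate 2; 17.4% of its exon bases lie in exons of Ints8 on the opposite strand. The transcription factor E2f1 had 2.80, 2.31, 1.90, 2.14 and 2.07 CPM in wt/wt replicates 1 to 5 and 4.62, 3.58, 2.06 and 2.83 CPM in ko/ko replicates 1 to 4. Only ko/ko replicate 3 lay below any wt/wt library, and the log2 fold change of E2f1 was 0.54 with SE 0.31 (adjusted p = 0.43 by edgeR), or 0.33 without ko/ko replicate 1. Mybl2, which encodes B-Myb, averaged 1.57 CPM in wt/wt (SD 1.10, n = 5) and 1.90 CPM in ko/ko (SD 0.751, n = 4), and Foxm1 3.60 CPM in wt/wt (SD 2.47, n = 5) and 3.09 CPM in ko/ko (SD 0.98, n = 4), with log2 fold changes of 0.27 (SE 0.53) and -0.22 (SE 0.47). Without wt/wt replicate 2 these were 0.57 (SE 0.55) and 0.24 (SE 0.40), the second with its sign turned, and Mybl2 was at -0.03 without ko/ko replicate 1.

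Other genes of the pathway, from lists chosen by function, gave 0 calls by edgeR over all genes. Of 46 further replication genes, 31 had negative log2 fold changes (median -0.25), against 52.6% of all genes tested. Of the 46, 8 had an unadjusted p under 0.05 as lower (17.4%, against 6.42% over all genes) and 0 as higher. Among these were subunits of the origin recognition complex, which marks the sites where replication begins. Its subunits Orc1, Orc4 and Orc5 overlapped between genotypes. On the log2 CPM scale Orc1 was at 0.95 to 2.56 in wt/wt and 1.42 to 2.53 in ko/ko. Orc4 was at 6.46 to 6.70 in wt/wt and 6.09 to 6.64 in ko/ko, and Orc5 at 4.85 to 5.50 in wt/wt and 5.11 to 5.70 in ko/ko. Orc2 (ENSMUSG00000026037; mm10 chromosome 1, 58462771 to 58505109, minus strand) had 51.9, 65.0, 55.7, 64.0 and 59.3 CPM in wt/wt replicates 1 to 5 and 36.6, 46.2, 40.7 and 42.4 CPM in ko/ko replicates 1 to 4, with every ko/ko library below every wt/wt library and no high value in wt/wt replicate 2 alone. Its log2 fold change was -0.51 with SE 0.13 (adjusted p = 0.151 by edgeR), and DESeq2 (adjusted p = 0.0139) and voom (adjusted p = 0.0195) called it. Orc6 had 43.5, 48.7, 45.4, 55.6 and 47.7 CPM in wt/wt replicates 1 to 5 and 26.5, 39.3, 36.8 and 38.5 CPM in ko/ko replicates 1 to 4, again without overlap, and a log2 fold change of -0.45 with SE 0.15 (adjusted p = 0.219 by edgeR) that neither DESeq2 (adjusted p = 0.102) nor voom (adjusted p = 0.0584) called. Orc3 was the third of the list whose libraries did not overlap (3 of 46, against 2.74% of all genes lower without overlap), at 72.7 CPM in wt/wt (SD 7.20, n = 5) and 56.7 CPM in ko/ko (SD 4.06, n = 4), and was named after its values were seen, as was Rpa3, which voom called as lower together with Orc2 and Orc3 (3 of 46, against 9.77% of all genes called by voom; DESeq2 called 1, against 3.63%).

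Of 51 further mitotic genes, 41 had negative log2 fold changes (median -0.34), against 52.6% of all genes tested. Of the 51, 0 fell under an unadjusted edgeR p of 0.05, against 6.42% lower and 8.86% higher over all genes. DESeq2 called 0, against 3.63% of all genes. Voom called 2 as higher, against 9.77% over all genes in either direction. Knl1, a kinetochore scaffold, had 8.34, 16.4, 2.34, 2.34 and 1.70 CPM in wt/wt replicates 1 to 5 and 1.73, 1.18, 3.66 and 2.63 CPM in ko/ko replicates 1 to 4. Its log2 fold change was -1.43 with SE 0.68 (adjusted p = 0.345 by edgeR), and -0.67 without wt/wt replicate 2. Kif15, a spindle motor that can stand in for Kif11, had 1.68, 4.47, 1.86, 1.02 and 0.964 CPM in wt/wt replicates 1 to 5 and 6.19, 2.81, 3.56 and 3.34 CPM in ko/ko replicates 1 to 4. Apart from wt/wt replicate 2, every wt/wt library lay below every ko/ko library. Its log2 fold change was 0.99 with SE 0.47 (adjusted p = 0.35 by edgeR), and voom called it (adjusted p = 0.0305). The other voom call was Prc1, named after its values were seen. In wt/wt replicate 2, 41 of these 51 genes were highest, as were 23 of the 46 further replication genes, against 11.3% of all genes tested. The medians of the further lists are given with all libraries only, that library included.

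Of 24 further regulators, 17 had negative log2 fold changes (median -0.10), against 52.6% of all genes tested. At an unadjusted p under 0.05 were 2 of 24, both higher (8.33%, against 8.86% of all genes). Cdk6 (ENSMUSG00000040274; mm10 chromosome 5, 3341485 to 3531008, plus strand), a kinase that D-type cyclins activate, had 9.87, 14.1, 9.96, 11.0 and 8.36 CPM in wt/wt replicates 1 to 5 and 15.8, 17.2, 20.3 and 17.7 CPM in ko/ko replicates 1 to 4. Every ko/ko library lay above every wt/wt library, the log2 fold change was 0.74 with SE 0.18 (adjusted p = 0.145 by edgeR), and DESeq2 (adjusted p = 0.0128) and voom (adjusted p = 0.0112) called it. E2f4, a mainly repressive E2F factor, had 13.1, 12.7, 10.01, 9.10 and 9.78 CPM in wt/wt replicates 1 to 5 and 13.5, 14.9, 14.5 and 15.98 CPM in ko/ko replicates 1 to 4, also without overlap (2 of 24, against 3.51% of all genes higher without overlap), and a log2 fold change of 0.43 with SE 0.17 (adjusted p = 0.276 by edgeR); voom called it (adjusted p = 0.0238) and DESeq2 did not (adjusted p = 0.167). Of 10 cell cycle inhibitors and growth arrest genes tested, 5 were negative and 5 positive (median 0.04), and 1, Gadd45b, had an unadjusted p under 0.05, as lower (against 6.42% of all genes). Gadd45b, a stress-induced growth arrest gene, had 933, 739, 986, 843 and 968 CPM in wt/wt replicates 1 to 5 and 523, 609, 759.5 and 790.4 CPM in ko/ko replicates 1 to 4. All ko/ko libraries lay below 4 of the 5 wt/wt libraries, and replicates 3 and 4 lay above wt/wt replicate 2; the log2 fold change was -0.41 with SE 0.17 (adjusted p = 0.279 by edgeR). Btg2, an antiproliferative gene, averaged 3141 CPM in wt/wt (SD 462, n = 5) and 2576 CPM in ko/ko (SD 201, n = 4), and its libraries did not overlap (1 of 10, against 2.74% of all genes), with a log2 fold change of -0.29 with SE 0.16 (adjusted p = 0.419 by edgeR).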

How the data were processed

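RNA was sequenced from 9 libraries of sorted CD45-negative, CD49f-positive skin cells. The authors deposited raw read counts per gene with an exon length per gene; the submitters' processing notes list GSNAP, featureCounts 1.6.2 and mm10, and the table's name gives Ensembl release 87. No source used here says how strand, multi-mapped reads or duplicates were handled. Of 49763 rows, 92 spike-in sequences were left out. Symbols come from GENCODE M21 by gene identifier.

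Groups are the labelled genotypes; replicate numbers only name libraries in accession order. The quasi-likelihood test of edgeR 4.0.16 (R 4.3.3) was run on counts (filterByExpr, TMM, glmQLFit with robust=TRUE, two-sided F test, Benjamini-Hochberg over 18435 genes, threshold 0.05). SE was taken as the size of the log2 fold change divided by the root of F. CPM use TMM-adjusted sizes of the tested genes, so 1 count is about 0.0431 to 0.0641 CPM before that adjustment. The labels name no molecular identifiers, so such floors cover counting error only. The fit was tested on simulated data in which 100 genes were changed 2-fold and 100 were changed 4-fold. At the threshold it recovered 23% of the 2-fold and 67% of the 4-fold changes, with 3 false calls among 93.

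The 40 genes and the other lists were chosen with earlier results of these data known. Genes given in every sample were, per class, the 3 smallest edgeR p and the 2 highest levels per length, plus Pcna, Mki67, Top2a, Ccnd1 and Ccnd2, and 2 genes of each further list; Rrm1, Cdc6 and Kif11 were added after their values were seen. Alternatives were RLE, upper-quartile or no factors, 2 other filters, DESeq2 1.42.0, voom of limma 3.58.1, each library left out, and the 3 libraries richest in Gm10800 left out. A fit without wt/wt replicates 1 and 2 was added after seeing the data.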

Additional observations from a re-analysis of the deposited data

Results flagged for a closer look

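A check for 1 library far from the rest of its genotype was made 88 times, and 11 checks found such a library; chance gives about 1 in 20, or 4.4. The genes of these groups share the same libraries, so the groups are not independent.

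In wt/wt replicate 2, 8 genes stood apart from the other wt/wt libraries. On the log2 CPM scale Mcm5 was 5.13 against 3.84 to 4.10, Mcm6 6.44 against 4.94 to 5.14, Rrm2 6.57 against 5.01 to 5.35 and Cdt1 4.08 against 2.68 to 2.95. Ccnb1 was 4.42 against 2.08 to 2.70, Top2a 5.84 against 3.24 to 3.96, Aurka 3.60 against 1.84 to 2.06 and Kif11 4.25 against 1.58 to 2.20. Summed over all 40 genes, log2 CPM was 10.57 there against 9.57 to 9.71, and over the replication genes 9.42 against 8.60 to 8.70. In ko/ko replicate 1 the log2 summed CPM of the replication genes was 8.01, below 8.54 to 8.63 in the other ko/ko libraries. Rrm1 and Mcm4 were far lower there than in those libraries, while Cdc6 and Gins2 were highest there.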

How the results depend on the processing

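The count of 0 genes of the 40 called was also 0 under every alternative but 1, DESeq2 and voom included. The exception, an added fit without wt/wt replicates 1 and 2, chosen after seeing the data for their high mitotic levels, called 1 (Ccnb2), with 0 lower and 6 higher at an unadjusted p under 0.05 and medians of -0.24, 0.28 and 0.32 for the replication, mitotic and G1 genes; it called 8.76% of all genes. The count of genes lower at an unadjusted p under 0.05 was 1 with all libraries, 0 by library size alone, 5 without a filter, 5 with DESeq2, 3 without the 3 libraries richest in Gm10800 and 0 to 5 with 1 library left out (0 without replicate 2 of either genotype, 5 without wt/wt replicate 4 or 5). The count higher was 0, and 1 with voom and 0 to 1 with 1 library left out. With 1 library left out, the median log2 fold change ran from -0.42 to -0.16 for the replication genes, from -0.73 to -0.08 for the mitotic genes and from -0.07 to 0.17 for the G1 genes. The end nearest 0 for the replication and mitotic medians was that without wt/wt replicate 2. Among the genes given in every sample, the sign turned for Cdc20 (0.040), Ccnb2 (0.52), Mki67 (0.58) and Top2a (0.33) with voom, for Ccnb2 (0.42), Mki67 (0.72) and Top2a (0.54) without wt/wt replicate 2, and for Ccne1 (-0.068) and Mki67 (0.004) without ko/ko replicate 2. In the added fit it turned for Cdc20 (0.093), Ccnb2 (0.68), Mki67 (1.03), Top2a (0.71) and Knl1 (0.11). Over all 40 genes, 11 had another sign without wt/wt replicate 2. With 1 library left out the values ran from -0.27 to 0.42 for Ccnb2, -0.068 to 0.20 for Ccne1, -0.54 to 0.72 for Mki67 and -0.50 to 0.54 for Top2a; the cause was not tested. Adjusted p over the alternatives ran from 0.192 to 0.511 for Mcm5, 0.0139 to 0.329 for Orc2, 0.0112 to 0.326 for Cdk6, 0.0305 to 0.721 for Kif15 and 0.0238 to 0.493 for E2f4. No paired analysis was possible because the labels give no replicate numbers. At the lowest levels, such as 3 counts of Kif11 in ko/ko replicate 1, depth limits what can be seen.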
